A study of Homo sapiens with 40 samples.

Results

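The MYC, MAX and MXD network genes were examined in EndoC-βH3 cells, a human beta-cell line derived from fetal pancreas and immortalized by hTERT and SV40 Large T. The line also carries CreER, a recombinase that 4-hydroxytamoxifen (4-OHT) activates and that then excises the immortalizing transgenes. Senescent cells had been treated with 4-OHT for 3 weeks and non-senescent cells served as the control, and both states carry the label genotype WT and descend from this 1 line. By ChIP-seq, 3 senescent and 3 non-senescent libraries were made for H3K27ac, histone acetylation found where promoters and enhancers are active, and for CTCF, which binds DNA and helps form chromatin loops. Another 2 and 2 libraries were made for the enhancer mark H3K4me1 and for Rb, the retinoblastoma protein, and each library had its own input (40 in all). The members were 10 of 20033 protein-coding genes (20007 distinct symbols): MYC, MYCN, MYCL, MAX, MXD1, MXD3, MXD4, MXI1, MNT and MLX. A peak was assigned to a member when it lay within 2 kb of one of its GENCODE 44 start sites, in its gene body, or nearest to it among protein-coding genes within 400 kb. This gave 30 of 51489 H3K27ac peaks, 36 of 51457 CTCF peaks and 11 of 27962 listed enhancers.

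Proteins of this network bind DNA in pairs at E-boxes, short sites with the letters CACGTG. MAX is the common partner. With MYC, MYCN or MYCL it recruits histone acetyltransferases and promotes transcription for growth and division, while with MXD1, MXD3, MXD4, MXI1 or MNT it recruits SIN3 and histone deacetylases and represses. MLX is a MAX-like protein that pairs with some MXD proteins and MNT and, with MLXIP or MLXIPL, activates glucose-responsive genes. MYC-family genes are typical of dividing cells, and several MXD genes are typical of cells that leave the cycle. MXD3 is an exception, being expressed in dividing cells. The comparison asked whether acetylation and CTCF binding at the genes of each side of the network differed between senescent and non-senescent beta-like cells.

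The promoter sequences at which the results below turn are given first. They were read from RefSeq promoters (GRCh38.p14) and show the 250 bases upstream of the RefSeq start, 5′ to 3′, with network or E2F motifs in capitals. MXD3 and MXD4 are shown because their promoters were called in opposite directions, and MYCN because its window held an E2F motif. The RefSeq start of MXD3 lies upstream of the GENCODE canonical start from which distances are counted here, and the bases next to that canonical start were neither shown nor searched.
MXD3 promoter, chr5:177312753-177313002, minus strand: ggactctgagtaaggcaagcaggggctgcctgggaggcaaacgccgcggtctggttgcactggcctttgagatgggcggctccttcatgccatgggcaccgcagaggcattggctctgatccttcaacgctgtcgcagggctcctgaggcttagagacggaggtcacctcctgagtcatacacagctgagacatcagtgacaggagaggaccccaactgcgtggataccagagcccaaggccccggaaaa
MXD4 promoter, chr4:2262110-2262359, minus strand: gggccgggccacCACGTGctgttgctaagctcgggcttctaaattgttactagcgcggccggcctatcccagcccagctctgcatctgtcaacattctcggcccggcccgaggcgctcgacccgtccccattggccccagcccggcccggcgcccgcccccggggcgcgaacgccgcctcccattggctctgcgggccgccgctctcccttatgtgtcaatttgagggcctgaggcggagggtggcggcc
MYCN promoter, chr2:15940300-15940549, plus strand: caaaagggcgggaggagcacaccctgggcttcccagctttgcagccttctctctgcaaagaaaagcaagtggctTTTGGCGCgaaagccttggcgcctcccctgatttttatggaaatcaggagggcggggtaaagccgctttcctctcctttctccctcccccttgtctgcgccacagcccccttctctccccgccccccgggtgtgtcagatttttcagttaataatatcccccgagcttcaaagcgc
The E-box CACGTG was present in the promoter windows of MXD4, MNT and MLX, at 238, 193 and 50 bases upstream of the start. RefSeq promoters were matched for 9 members (12 windows, MAX and MXI1 having several starts), and the other 9 windows held no E-box. Each window searched was 300 bases long, the 250 upstream and the 50 after the start. Over all 35116 RefSeq promoters of the same length, 7.26% held the E-box. Since CACGTG reads the same on both strands, 1 search covered both. The short windows around the E-boxes of MNT and MLX are shown with the motif in capitals.
MNT promoter E-box, chr17:2401236-2401265, minus strand: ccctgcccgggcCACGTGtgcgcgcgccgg
MLX promoter E-box, chr17:42567038-42567067, plus strand: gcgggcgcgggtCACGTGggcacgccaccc
Of the E2F motifs searched on both strands, TTTCCCGC was in 1.63% of all promoters and in 0 member windows. TTTGGCGC was in 0.652% of all promoters, and among the members only in the MYCN window, 176 bases upstream of the start. These matches describe letters in a window, and neither E2F nor MYC binding was measured.

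A CTCF core (CCNNNAGNNGGC, searched on both strands) was found in 16 of the 36 CTCF peaks of the network genes, against 38.3% of all CTCF peaks. One core is shown from a promoter CTCF peak of MXD3, MYCL and MYCN, where the results below set CTCF beside H3K27ac, with the 12 core letters in capitals.
MXD3 promoter CTCF core, chr5:177309855-177309884, plus strand: cactcctgtCCACCAGGGGGCactgagctc
MYCL promoter CTCF core, chr1:39902400-39902429, minus strand: ggctgagggCCGCCAGGTGGCgcgtttccc
MYCN promoter CTCF core, chr2:15943477-15943506, plus strand: ggtgcgtggCCAGCAGGCGGCgatatgcga

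The data are the authors' comparison of the 2 states for each peak. A log2 fold change is senescent over non-senescent, and the mean count is the authors' mean over libraries of normalized reads in the peak. Values per library were not used here, since the tables give none, and the spread between libraries enters only through the standard error (SE) and the 95% interval. Gained or lost peaks were those with a fold change above 1.5 and an adjusted p under 0.05 for H3K27ac, or under 0.2 for CTCF. All 9 beta-cell marker promoters examined had an H3K27ac peak, with mean counts from 2453 to 13800, and 0 were called (DESeq2; 5 passed the adjusted p, 7 an unadjusted p under 0.05). Of 12 markers of other pancreatic, stromal, blood and vessel cells, 6 had a peak, 3 with a log2 fold change above 0 and 3 below. The peaks of COL3A1 (-0.75, fibroblast, mean count 165.5) and KRT19 (-0.74, duct, mean count 912.7) were lost. CPA1 (acinar, mean count 1498) was at 0.19 (DESeq2 adjusted p = 0.017), under the fold threshold. The peak counted for CD68 (mean count 3544) also covers the start of EIF4A1. By the promoter peak of highest count, 3.34% of 13525 coding genes were gained and 9.12% were lost. No promoter peak was listed at CELA3A, COL1A1, GCG, PECAM1, PRSS1 or SOX9, and the part of other cells in the results was not tested. For CTCF, 1 of 3 beta-cell marker peaks was lost (ABCC8, -0.87) and 0 of 7 peaks of the other markers were called (2 at an unadjusted p under 0.05). Over all 10565 coding genes with a CTCF promoter peak, 68 were gained and 456 were lost.

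H3K27ac was lost at the promoters of MXD3 and MYCL and gained at that of MXD4 in senescent cells. Of 10 promoter peaks at 9 members, 1 was gained and 2 were lost, where 5.92% of all 16955 promoter peaks were gained and 9.98% were lost. The other promoter peaks were not called, and MYC had no promoter peak in the table. Over all 30 H3K27ac peaks of the network, 5 were gained and 7 were lost, against backgrounds of 9.47% and 13.1% of all peaks. Among the 20 peaks outside promoters, 4 were gained and 5 lost, against 11.2% and 14.7% of all peaks outside promoters. The median log2 fold change of the 30 peaks was 0.071, beside 0.0075 for all H3K27ac peaks.

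**Figure D1:**
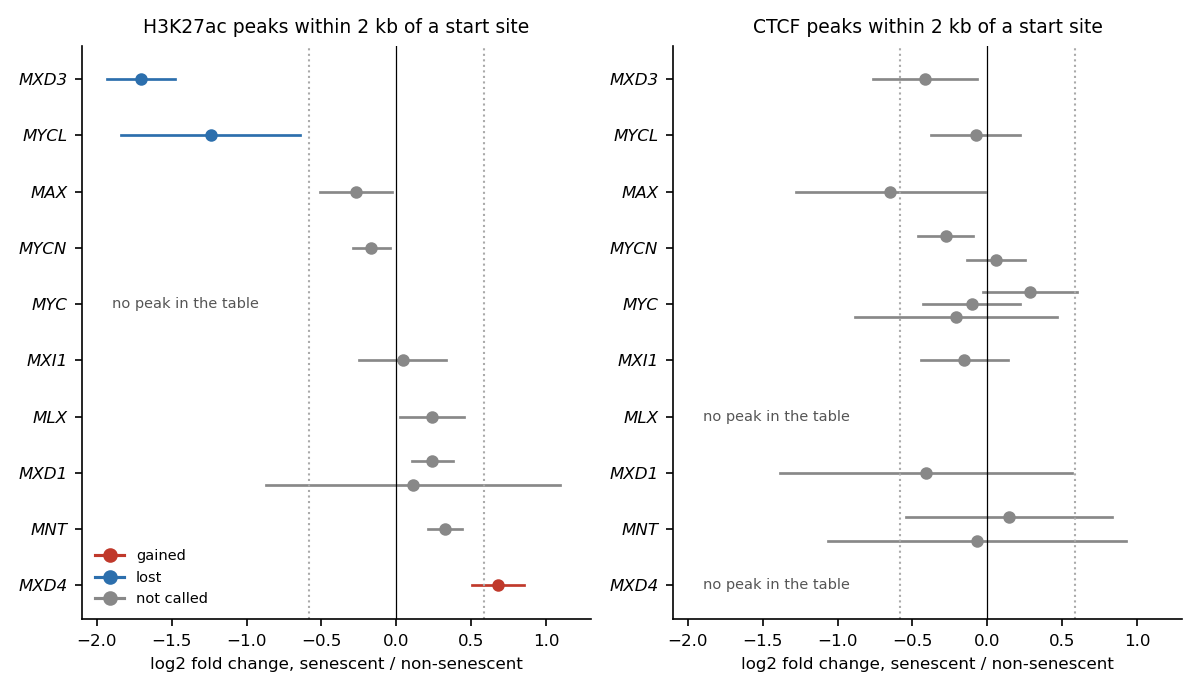
Log2 fold change (senescent over non-senescent, x axis) of every H3K27ac (left) and CTCF (right) peak within 2 kb of a start site, by gene. Points are the deposited estimates, bars their 95% intervals, dotted lines a fold change of 1.5, and colors the calls; H3K27ac of MXD3 and MYCL lies left of the lower line and that of MXD4 right of the upper line, and 0 CTCF peaks are called.

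Among the antagonists of MYC, MXD3 had the largest difference of any member promoter. Its H3K27ac peak (chr5:177308888-177313706, covering the start site) had a mean count of 422.8 and a log2 fold change of -1.71 (SE 0.116, 95% interval -1.93 to -1.48, DESeq2 adjusted p = 1.06e-46). That is 3.27-fold lower in senescent cells, and 0.643% of all promoter peaks had a lower log2 fold change. The loss was also called when the Wald test was made against a fold change of 1.5 (adjusted p = 1.60e-19). The 2 gene-body peaks lie outside the canonical MXD3 transcript, where only other MXD3 transcripts reach, and overlap neighboring genes. The larger, 8.12 kb downstream of the canonical start, lies at the start sites of PRELID1 and RAB24. It had a mean count of 356 and a log2 fold change of -0.03 (95% interval -0.25 to 0.20, adjusted p = 0.88). Its interval lies apart from that of the MXD3 promoter. The small one, over RAB24, had a mean count of 22.46 and a log2 fold change of 0.43 (adjusted p = 0.45).

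MXD4 was the member with a gained promoter. Its peak (chr4:2260553-2263677) had a mean count of 721.8 and a log2 fold change of 0.68 (SE 0.0877, 95% interval 0.51 to 0.85, adjusted p = 2.53e-13), or 1.60-fold higher in senescent cells. Of all promoter peaks, 93.9% had a lower log2 fold change. The size is near the fold threshold, and the peak was not called in a Wald test against a fold change of 1.5. The E-box printed above lies inside this peak, and no CTCF peak was assigned to MXD4.

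MNT, the broadly expressed antagonist, had the widest H3K27ac peak of the network. Its peak (chr17:2390455-2403284) was 12829 bp wide, wider than 99.2% of H3K27ac peaks, with a mean count of 6455, above 99.5% of promoter peaks. Per kb of peak its mean count was 503.1, the highest of the member promoters, against 339.9 for MYCN, 302.4 for MXD1 and 231.1 for MXD4. The log2 fold change was 0.32 (95% interval 0.21 to 0.44, adjusted p = 3.60e-07), a 1.25-fold difference that passed the adjusted p and stayed under the fold threshold. With the trend of fold change with GC content removed, the log2 fold change was 0.54 (95% interval 0.42 to 0.65), still not called, and this interval holds a fold change of 1.5.

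MXD1 differed more inside the gene than at its start. The promoter peak (chr2:69911538-69916909) had a mean count of 1624 and a log2 fold change of 0.24 (95% interval 0.10 to 0.38, adjusted p = 0.0028), under the fold threshold. The gene-body peak 18.8 kb downstream of the start (chr2:69931836-69936077) had a mean count of 330.2 and was gained, with a log2 fold change of 0.97 (SE 0.127, 95% interval 0.72 to 1.22, adjusted p = 3.87e-13). The 2 intervals do not overlap. This region is a listed enhancer in both states, and the listed length was 914 bp in non-senescent and 3968 bp in senescent cells. Against a fold change of 1.5 its Wald test gave an adjusted p of 0.048. A small peak at a start site of another MXD1 transcript 22.5 kb downstream had a mean count of 17.84 and a log2 fold change of 0.11 (95% interval -0.87 to 1.09).

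For MXI1, no H3K27ac peak was listed over the canonical start site. Its promoter peak lay at another start site 19.2 kb into the gene (chr10:110225636-110227975), with a mean count of 203.8 and a log2 fold change of 0.04 (95% interval -0.25 to 0.33, adjusted p = 0.84). An intergenic peak 38.6 kb upstream (chr10:110168077-110169887, mean count 90.46), in neither enhancer list, was gained, with a log2 fold change of 0.93 (SE 0.25, adjusted p = 0.0011).

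Of the members that pair with the antagonists, MAX itself had a promoter peak (chr14:65100739-65103876) with a mean count of 332.4 and a log2 fold change of -0.27 (95% interval -0.51 to -0.031, adjusted p = 0.065). Gene-body peaks of MAX, both with low counts, were called in opposite directions. The peak 29.3 kb inside the gene (mean count 36.26) was gained, at 0.93 (adjusted p = 0.033). It lies outside the canonical MAX transcript, within other MAX transcripts, and its nearest coding start site is that of FNTB. The peak 73.2 kb inside (mean count 25.84) was lost, at -1.06 (adjusted p = 0.020), and lies where FNTB overlaps MAX, so that it cannot be ascribed to either gene. Neither was called at an adjusted p under 0.01. MLX had 1 peak (chr17:42565819-42568732), with a mean count of 431.2 and a log2 fold change of 0.24 (95% interval 0.022 to 0.45, adjusted p = 0.073). It covers the MLX start and an exon of COASY, and lies within 2 kb of an annotated COASY start but not over its canonical start.

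**Figure D2:**
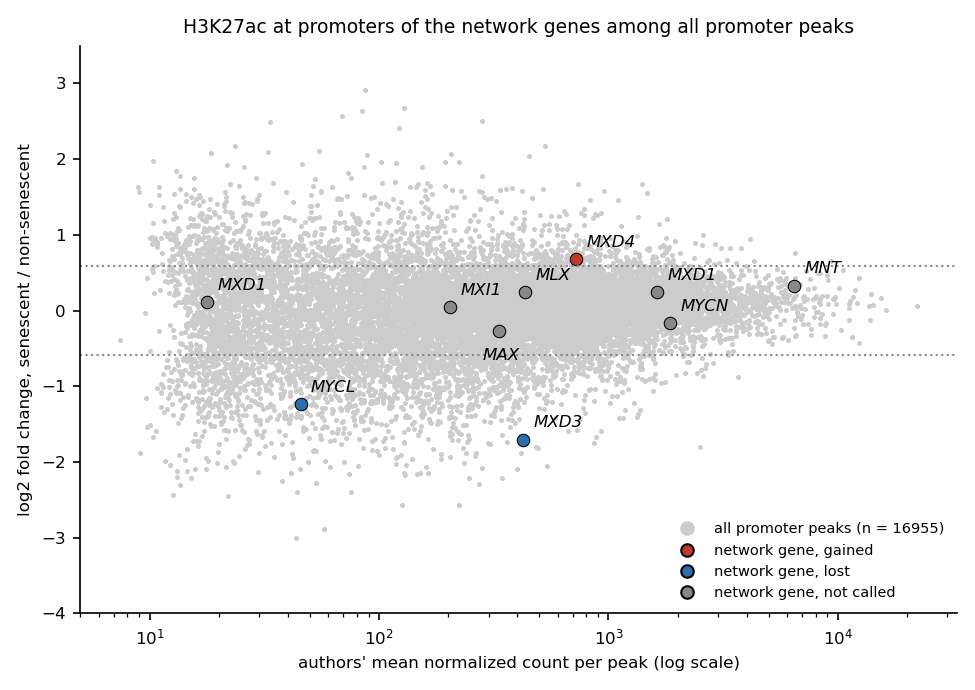
Authors' mean normalized count (x axis, log scale) against log2 fold change (y axis) for all 16955 H3K27ac promoter peaks (gray) and the 10 of the network genes (outlined and colored by call, MXD1 having 2 peaks). MXD3 lies at the lower edge of peaks of its level, MNT at 6455 counts near the high end, and MYCL among peaks of low count.

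Among the MYC paralogs, MYCL lost H3K27ac at both of its peaks. The promoter peak (chr1:39901337-39902458) had a mean count of only 45.53 and a log2 fold change of -1.24 (SE 0.305, 95% interval -1.84 to -0.64, adjusted p = 2.57e-04), or 2.36-fold lower. The peak 4.78 kb inside the gene (chr1:39896593-39897690, over an exon and UTR) had a mean count of 35.27 and a log2 fold change of -1.59 (95% interval -2.45 to -0.72, adjusted p = 0.0014). These are low counts, and neither was called against a fold change of 1.5. CTCF at the MYCL promoter had a mean count of 245 and a log2 fold change of -0.08 (95% interval -0.38 to 0.22, adjusted p = 0.81), an interval apart from that of H3K27ac at the promoter. With the GC trend removed the values were 0.14 for CTCF and -1.03 for H3K27ac, with intervals still apart. The marks come from separate comparisons, and the difference between them was not tested. At the gene-body peak, CTCF was lost along with H3K27ac, at -1.06 (95% interval -1.95 to -0.18, mean count 25.46, adjusted p = 0.17). That CTCF peak held no exact core, and with the GC trend removed it was not called (adjusted p = 0.32), although its log2 fold change was -1.01.

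MYCN had the largest set of H3K27ac peaks, and peaks downstream of the gene moved in opposite directions while the promoter was not called. The promoter peak (chr2:15939739-15945222, covering the starts of MYCN and of the antisense gene MYCNOS) had a mean count of 1863, above 92.7% of promoter peaks. Its log2 fold change was -0.17 (95% interval -0.29 to -0.046, adjusted p = 0.022), a 1.12-fold difference. The peak 53.1 kb downstream (chr2:15992398-15994988, mean count 265.5), listed as an enhancer in non-senescent cells alone, was lost, with a log2 fold change of -1.06 (SE 0.139, 95% interval -1.33 to -0.78, adjusted p = 6.46e-13). The peak 154.4 kb downstream (chr2:16092340-16097523, mean count 2788), an enhancer in both lists, was gained, with a log2 fold change of 0.69 (SE 0.065, 95% interval 0.56 to 0.81, adjusted p = 3.82e-24). Per kb of peak, this distal peak had a mean count of 538, against 339.9 at the promoter. Another region, 202.2 kb downstream and a listed enhancer in senescent cells alone, had a log2 fold change of 0.50 (adjusted p = 0.0013), under the fold threshold. The 6 other peaks between 110.4 and 249 kb had log2 fold changes from -0.02 to 0.41 and were not called.

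MYCN also had the CTCF peaks with the highest mean counts per kb among the members. The CTCF peak over its start site (mean count 716.8, 236.9 per kb) had a log2 fold change of 0.06 (95% interval -0.13 to 0.25, adjusted p = 0.78). A peak 2.67 kb downstream of the start (mean count 773.9, 375.5 per kb) had a log2 fold change of -0.28 (95% interval -0.46 to -0.093, adjusted p = 0.069), past the adjusted p and under the fold threshold. With the GC trend removed it was at -0.06 (adjusted p = 0.87). The CTCF peak inside the gained distal enhancer had a mean count of 86.29 and a log2 fold change of 0.29 (95% interval -0.22 to 0.81, adjusted p = 0.56).

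At MYC, the H3K27ac table used here lists no peak over the start site. The next listed peak downstream began 58.07 kb away and the next upstream 1122 kb away. A region that is not listed has no value here, so this is no measurement of absent acetylation. For comparison, 67.6% of coding gene symbols (13525 of 20007) had a promoter peak. All 4 H3K27ac peaks assigned to MYC lay in PVT1, a long noncoding RNA gene beside it, and had log2 fold changes under 0. The peak 148.7 kb downstream (mean count 127.3), an enhancer in both lists, was lost at the threshold, with a log2 fold change of -0.59 (95% interval -0.94 to -0.24, 1.51-fold lower, adjusted p = 0.0034). A peak at the PVT1 start site 58.3 kb downstream was also lost, at -1.84, but its mean count was 10.79 and its interval ran from -3.14 to -0.54 (adjusted p = 0.017). The peak 64.3 kb downstream, listed as an enhancer in senescent cells alone, had a mean count of 84.5 and a log2 fold change of -0.03 (95% interval -0.53 to 0.47). The most distant peak, at 379 kb, had a log2 fold change of -0.48 (adjusted p = 0.38).

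CTCF was bound on both sides of the MYC start. The peak 2.30 kb upstream, which covers the start of CASC11, had a mean count of 228.5 and a log2 fold change of 0.29 (95% interval -0.027 to 0.60, adjusted p = 0.32). The peak over the start had a mean count of 171.4 and a log2 fold change of -0.10 (95% interval -0.43 to 0.22, adjusted p = 0.76). The peak 1.82 kb downstream had a mean count of 39.48 and a log2 fold change of -0.21 (95% interval -0.89 to 0.47, adjusted p = 0.77). Exact CTCF cores were found in the upstream and downstream peaks, and not in the peak over the start. None of the 9 CTCF peaks assigned to MYC was called, and 4 of them had no adjusted p.

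**Figure D3:**
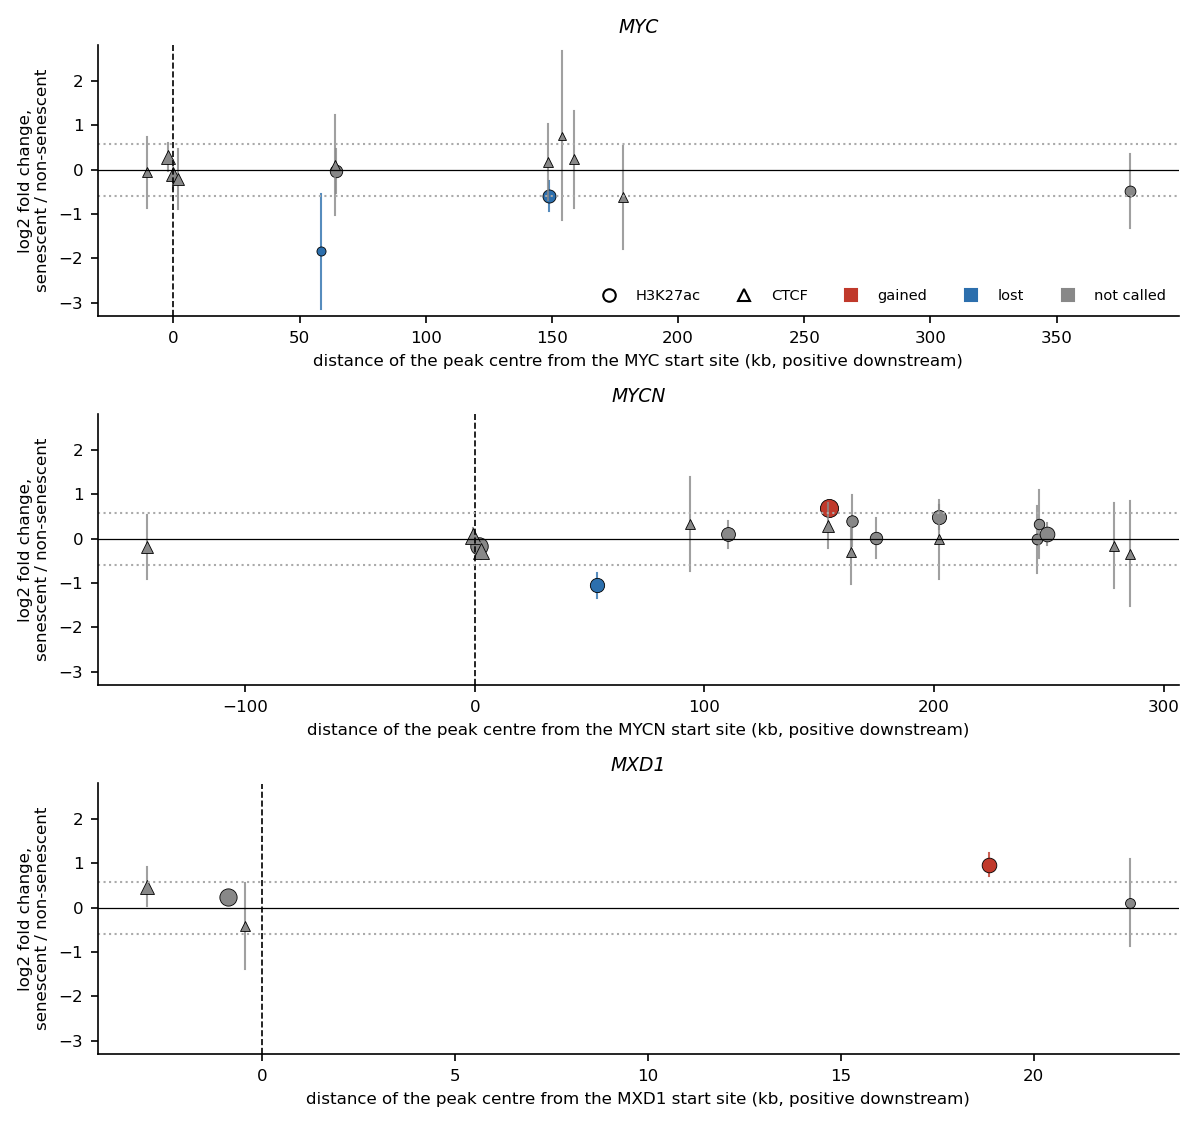
Log2 fold change (y axis) of H3K27ac (circles) and CTCF (triangles) peaks against the distance of their centers from the start sites of MYC, MYCN and MXD1 (x axis, kb); bars are 95% intervals, dotted lines a fold change of 1.5, and larger symbols higher mean counts. In the MYCN panel the lost peak at 53.1 kb and the gained peak at 154.4 kb lie on opposite sides of 0, and the MYC panel has no circle at the start site.

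All of these distal peaks were tied to MYC, MYCN or MXI1 by distance to protein-coding start sites. When the nearest gene was sought among all GENCODE genes, 0 of the 14 distal H3K27ac peaks were assigned to a member, since other genes lie closer. No contact between these peaks and the promoters was measured.

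CTCF was called at few peaks of the members. Of 36 peaks, 1 was gained and 1 lost, against 2.29% and 3.28% of all CTCF peaks. None of the 12 promoter peaks was called (DESeq2; 3 had an unadjusted p under 0.05), against 0.759% gained and 4.05% lost over all promoter peaks. The gained peak lay 61.8 kb upstream of MAX (chr14:65163566-65165148, mean count 146.5), with a log2 fold change of 0.60 (SE 0.203, 95% interval 0.20 to 1.00, adjusted p = 0.067). It held no exact core and was no longer called once the GC trend was removed, with a log2 fold change of 0.54 (adjusted p = 0.18), under the fold threshold. At the MXD3 promoter CTCF had a mean count of 155 and a log2 fold change of -0.42 (95% interval -0.76 to -0.072, adjusted p = 0.16), under the fold threshold. With the GC trend removed it was at -0.27 (95% interval -0.61 to 0.076, adjusted p = 0.57). Both intervals lie apart from that of H3K27ac there, but the marks come from separate comparisons, and the difference between them was not tested. CTCF at the MAX promoter was at -0.65 (95% interval -1.28 to -0.019, adjusted p = 0.25). At the MXI1 promoter it was at -0.15 (adjusted p = 0.59), and at 0.12 with the GC trend removed. The promoter peaks of MNT were at 0.14 and -0.07 and that of MXD1 at -0.41, with mean counts from 15.76 to 36.08. Another CTCF peak, 2.99 kb upstream of the canonical MXD1 start, overlaps the promoter H3K27ac peak and had a mean count of 131.8. Its log2 fold change was 0.47 (95% interval 0.029 to 0.92, adjusted p = 0.23), and 0.23 with the GC trend removed (95% interval -0.22 to 0.67). MLX, like MXD4, had no CTCF peak. Of 17 overlapping pairs of an H3K27ac and a CTCF peak at the members, 52.9% had the same sign, and 53.1% of all such pairs did.

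Ordered by H3K27ac log2 fold change at the promoter, the members ran from MXD3 and MYCL through MAX, MYCN, MXI1, MLX, MXD1 and MNT to MXD4. The 95% intervals of neighbors in this order overlapped except between MYCL and MAX and between MNT and MXD4. With the GC trend removed, the intervals of MYCL (-1.63 to -0.43) and MAX (-0.54 to -0.059) overlapped too, and MXD1 came before MXI1 and MLX, while MXD3, MYCL, MAX and MYCN kept the low end and MNT and MXD4 the high end. MXD3 thus stood with MYCL at the low end, apart from the other antagonists.

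Of the 11 listed enhancers, 5 were listed in non-senescent and 6 in senescent cells. All belonged to MYC, MYCN or MXD1. In each state 4 of them overlapped an enhancer of the other state, leaving 1 listed in non-senescent cells alone (MYCN, 53.0 kb) and 2 in senescent cells alone (MYC, 63.8 kb, and MYCN, 202.2 kb). The full lists hold 14886 non-senescent and 13076 senescent enhancers. The share of these found in 1 state alone was not computed, so the member counts cannot be set against it.

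The other genes of the pathway showed few calls. By the promoter peak of highest count, 3.34% of 13525 genes were gained and 9.12% were lost, with a median log2 fold change of 0.039. In the wider network, none of MGA, MLXIP and MLXIPL was called (DESeq2; all 3 had an unadjusted p under 0.05), with a median of -0.30. MLXIPL, which encodes the glucose-responsive partner of MLX, was at -0.30 (adjusted p = 1.56e-06, mean count 4609) and MLXIP at -0.50 (adjusted p = 0.0023), both under the fold threshold. Of 20 partners and regulators of the network, such as SIN3A, TRRAP and FBXW7, 0 were called (5 passed the adjusted p and 5 an unadjusted p under 0.05), with a median of 0.072. Of 27 MYC targets, 26 had a peak, with a median of -0.03, and 8 passed the adjusted p. Of these, SHMT2 and LDHA were lost. SHMT2, a mitochondrial enzyme of serine and folate metabolism, was at -1.88 (SE 0.143, adjusted p = 6.31e-37), and LDHA, which makes lactate, was at -0.68 (SE 0.113, adjusted p = 1.61e-08). Of 9 targets of MLX with its partners, with a median of 0.071, 5 passed the adjusted p, and ARRDC4 and GPI were gained. ARRDC4, an arrestin-like protein, was at 0.65 (SE 0.0725, adjusted p = 2.20e-17) and GPI, a glycolytic enzyme, at 0.69 (SE 0.0969, adjusted p = 2.41e-11), while TXNIP was at -0.16 (adjusted p = 0.47). For CTCF, 0 promoters were called among the 3, 13, 17 and 6 genes of these lists with a peak. The adjusted p was passed by 0, 0, 4 and 0 of them, and an unadjusted p under 0.05 by 0, 2, 5 and 0 (DESeq2). Calls were rare in the background too, with 68 gained and 456 lost among 10565 coding genes with a CTCF promoter peak.

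**Figure D4:**
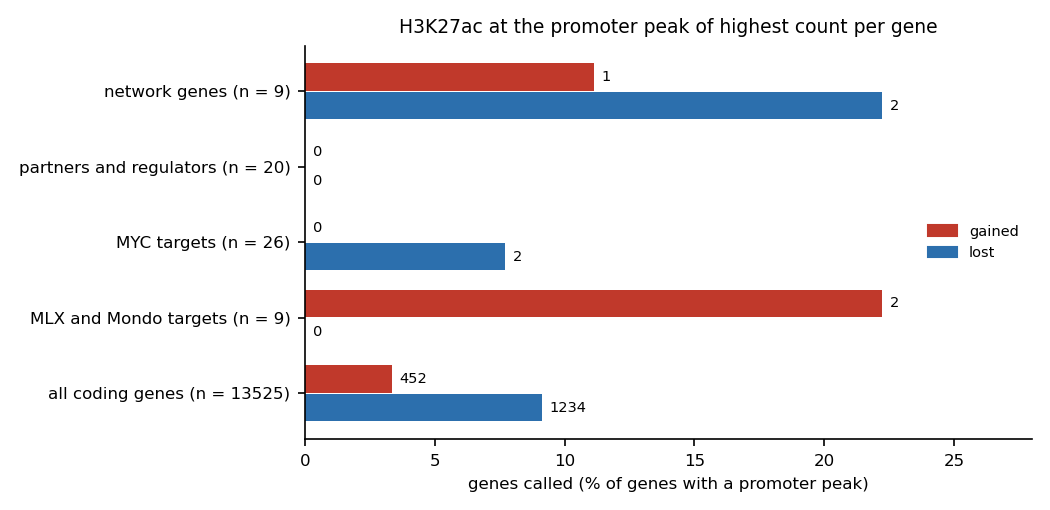
Percent of genes called gained (red) or lost (blue) for H3K27ac at the promoter peak of highest count, for the network genes with such a peak, 3 gene lists and all coding genes; numbers at the bars are genes. The 452 gained and 1234 lost among all genes give the background, and lists of 9 genes move by a large step with each gene.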

How the data were processed

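Reads had been trimmed (Trim Galore) and aligned to hg38 (Bowtie2) by the authors, who called peaks against input, using HOMER for both histone marks and MACS2 for CTCF; versions are not given in the sources used here. The authors then compared raw reads in peaks with DESeq2, and the deposited tables hold its output: the mean signal (reads divided by size factors), the log2 fold change with its standard error, the Wald score, the p-value and the adjusted p-value. Enhancers are overlapping H3K4me1 and H3K27ac regions outside promoters. The deposited lists of enhancers and Rb regions hold positions alone. Because size factors center the typical peak at no change, a global shift of a mark cannot be seen.

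A test on counts had been planned, but the tables hold no values per library, so the deposited estimates were thresholded as they stood and nothing was refitted. Labels do not say whether libraries came from separate cultures, so p-values measure the spread between these libraries, which may be technical. The tables do not give the depth per library. Mean counts summed over peaks were 19239499 for H3K27ac and 6136424 for CTCF, above the reads per sample stated in the study's methods, which were not used as the depth. An adjusted p was missing for 11972 CTCF peaks, which stayed uncalled. Coordinates are those of the files, whose start base is not stated. The study's methods describe a filter of CTCF peaks by matches to a motif matrix. The exact 12-letter core searched here, held by 38.3% of the peaks, is a stricter and different measure. This share therefore cannot tell whether the peaks here had passed that filter.

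Intervals are 1.96 standard errors on each side. Peaks were assigned with GENCODE 44 (overlap of at least 1 bp; distance from the peak center to the canonical start), and GC content and CTCF cores were read from hg38. Named were every member with its promoter peaks, its called peaks elsewhere and, of each gene list, the genes called. A few uncalled genes and peaks (TXNIP, MLXIP, MLXIPL and the distal and gene-body peaks given with values) were named after their values were seen. The members and lists were chosen with earlier results of these data known. Alternatives were other thresholds, windows, count minimums and gene assignments, and, added after seeing the data, removal of the trend of fold change with GC content in 20 groups. Python 3.11.15, numpy 2.4.6, pandas 2.3.3 and scipy 1.17.1 were used.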

Additional observations from a re-analysis of the deposited data

Results flagged for a closer look

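The list of Rb regions specific to senescent cells, which enters no comparison above, had 1 region at the start sites of the network genes. It lay in an intron of MNT (chr17:2393478-2393732, 254 bp), 7455 bp inside the canonical start, within 2 kb of another MNT start and inside the wide MNT H3K27ac peak. Over all 20007 coding gene symbols, 328 (1.64%) had such a region at a promoter, of 2435 regions. The list holds positions alone, so the level of Rb was not tested.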

How the results depend on the processing

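No call changed direction under an alternative. Of the 12 H3K27ac calls (5 gained, 7 lost), 6 remained at a fold change above 2, 3 under the Wald test against a fold change of 1.5, 7 at a minimum of 50 counts and 7 when the nearest gene was sought among all genes. Of the 3 promoter calls, 1 was left under the test against 1.5. Without a fold threshold 6 promoter peaks were called, and 5 with a window of 5 kb. Of the 2 CTCF calls, 1 was left at a fold change above 2, at 50 counts or with all genes as neighbors, and 0 at an adjusted p under 0.05, in the test against 1.5 or with the GC trend removed (DESeq2; 6 peaks had an unadjusted p under 0.05). Without a fold threshold 4 CTCF peaks were called. Of the 4 shared enhancers, 2 were left under a reciprocal overlap of 50% and 1 with all genes as neighbors. Removing the GC trend changed the call of 0 of the 30 H3K27ac peaks, while promoter values moved from 0.68 to 0.89 at MXD4, from 0.32 to 0.54 at MNT, from 0.04 to 0.25 at MXI1 and from -1.24 to -1.03 at MYCL. It turned the sign of 1 uncalled H3K27ac peak (MYCN, 174.7 kb downstream, 0.0060 to -0.0020) and of 5 uncalled CTCF peaks, all at promoters: the start of MYC (-0.10 to 0.07), downstream of it (-0.21 to 0.06), MYCL (-0.08 to 0.14), MXI1 (-0.15 to 0.12) and MNT (-0.07 to 0.29). It took the called peaks of the whole CTCF table to 477 gained and 848 lost, from 1180 and 1690.

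No paired analysis was possible because the tables hold no values per library. For the same reason, leaving out replicates, other normalizations and an edgeR fit were not run. Depth limits the weak peaks most: 11 of the 30 H3K27ac peaks and 21 of the 36 CTCF peaks had under 50 counts.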
